A study of Mus musculus with 20 samples.

Results

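Acetylation of histone H3 at lysine 27 (H3K27ac) is a mark of active promoters and enhancers, and here it was read at 10 genes whose products write, remove or help to remove histone acetylation. The genes, chosen by name from 21887 protein-coding genes, were the acetyltransferases Crebbp, Ep300 and Kat2b, the zinc-dependent deacetylases Hdac1, Hdac2 and Hdac3, the corepressor Ncor1 and the sirtuins Sirt1, Sirt3 and Sirt6. For each gene, every acetylated region that touched the annotated gene span extended by 5 kb on both sides was taken, and the tags and lengths of those regions were summed in each library. The libraries came from mouse hepatocytes, the parenchymal cells of the liver, which had been isolated by a perfusion in 2 steps. There were 5 H3K27ac libraries from young mice (C57BL/6N, 5 months) and 5 from old mice (C57BL/6J, 23 months), and 10 input samples, whose reads were used here only as the input value listed with each region. Age and substrain coincide and cannot be told apart. Human chromatin had been added to all samples as a spike-in, and no scaling to it was used here. Whether the 5 libraries of an age stand for 5 mice is not stated, so the p-values rest on the spread among samples, which may be technical.

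CREBBP (CBP) and EP300 (p300) are paralogous coactivators and the main enzymes that acetylate lysine 27 of histone H3. KAT2B (PCAF) is an acetyltransferase of SAGA-type coactivator complexes. HDAC1 and HDAC2 work in the NuRD, Sin3 and CoREST complexes, while HDAC3 depends on a corepressor such as NCOR1 for its activity, and in liver this pair is known for holding back lipid synthesis genes in a daily rhythm. Sirtuins use NAD as a cosubstrate. SIRT1 and SIRT6 act in the nucleus and SIRT3 in mitochondria, where it deacetylates metabolic enzymes.

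The RefSeq promoter table (GRCm38.p6, the mm10 assembly) held 12 annotated start sites for 8 of the 10 genes. Hdac1 and Hdac3 had no entry. Of these start sites 11 lay inside an acetylated region, and for 7 of the 8 genes that region was called in all 10 libraries. Of 17492 protein-coding genes with an entry, 35.9% had a start site in such a region. The sequences shown are those of the 5 strongest start-site regions (both start sites for Kat2b) and of Hdac2, which was added after its values were seen. Each runs 5′ to 3′ from 250 bases before to 50 bases after the start site, and capitals mark CpG dinucleotides.
Ncor1, chr11:62457283-62457582, - strand: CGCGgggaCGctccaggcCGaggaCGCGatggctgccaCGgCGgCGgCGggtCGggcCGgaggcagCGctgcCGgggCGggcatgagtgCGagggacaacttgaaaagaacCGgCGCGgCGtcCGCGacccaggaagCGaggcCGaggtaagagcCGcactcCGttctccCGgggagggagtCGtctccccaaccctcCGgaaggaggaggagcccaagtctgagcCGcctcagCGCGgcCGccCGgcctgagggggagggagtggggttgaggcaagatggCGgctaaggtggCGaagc
Ep300, chr15:81585964-81586263, + strand: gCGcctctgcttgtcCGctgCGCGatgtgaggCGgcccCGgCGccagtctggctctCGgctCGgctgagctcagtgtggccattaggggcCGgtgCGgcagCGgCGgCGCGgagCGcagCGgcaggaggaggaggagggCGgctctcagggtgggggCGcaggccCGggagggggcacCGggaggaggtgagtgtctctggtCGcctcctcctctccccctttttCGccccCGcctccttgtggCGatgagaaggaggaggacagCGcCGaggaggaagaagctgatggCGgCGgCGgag
Crebbp, chr16:4213355-4213654, - strand: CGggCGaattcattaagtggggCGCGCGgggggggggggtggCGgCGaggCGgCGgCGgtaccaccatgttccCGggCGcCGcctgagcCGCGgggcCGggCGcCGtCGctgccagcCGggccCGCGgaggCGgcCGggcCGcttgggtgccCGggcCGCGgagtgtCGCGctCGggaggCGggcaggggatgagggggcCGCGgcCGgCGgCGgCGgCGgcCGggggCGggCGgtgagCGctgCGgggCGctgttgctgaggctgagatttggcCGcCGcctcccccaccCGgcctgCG
Sirt3, chr7:140882260-140882559, - strand: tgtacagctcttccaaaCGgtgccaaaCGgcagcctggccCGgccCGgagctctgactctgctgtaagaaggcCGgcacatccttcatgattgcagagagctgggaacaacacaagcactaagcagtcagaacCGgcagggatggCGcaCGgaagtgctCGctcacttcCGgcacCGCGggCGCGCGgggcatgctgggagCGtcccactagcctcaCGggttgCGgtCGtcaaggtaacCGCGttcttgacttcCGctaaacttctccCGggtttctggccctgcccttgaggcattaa
Hdac2, chr10:36974294-36974593, + strand: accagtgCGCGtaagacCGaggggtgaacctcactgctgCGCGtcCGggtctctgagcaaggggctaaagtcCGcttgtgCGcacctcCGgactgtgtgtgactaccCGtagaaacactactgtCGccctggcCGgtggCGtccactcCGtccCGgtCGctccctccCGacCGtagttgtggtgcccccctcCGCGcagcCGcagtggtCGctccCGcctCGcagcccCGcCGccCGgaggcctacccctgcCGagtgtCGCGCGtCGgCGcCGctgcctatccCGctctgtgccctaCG
Kat2b, chr17:53566721-53567020, + strand: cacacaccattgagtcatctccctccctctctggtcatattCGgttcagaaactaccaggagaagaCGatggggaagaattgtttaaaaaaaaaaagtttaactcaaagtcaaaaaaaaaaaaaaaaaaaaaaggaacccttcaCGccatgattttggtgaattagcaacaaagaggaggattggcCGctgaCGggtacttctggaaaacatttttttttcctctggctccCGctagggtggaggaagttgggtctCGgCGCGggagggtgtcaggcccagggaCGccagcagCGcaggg
Kat2b, chr17:53583876-53584175, + strand: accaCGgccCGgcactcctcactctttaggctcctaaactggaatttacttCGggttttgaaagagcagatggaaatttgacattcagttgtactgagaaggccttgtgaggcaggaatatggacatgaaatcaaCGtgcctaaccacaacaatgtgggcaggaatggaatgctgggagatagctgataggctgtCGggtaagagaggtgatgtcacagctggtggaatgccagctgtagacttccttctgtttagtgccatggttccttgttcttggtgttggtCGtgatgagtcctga
The Crebbp, Ncor1, Hdac2 and Ep300 promoters held 49, 36, 36 and 30 CpGs in 300 bases, against a median of 7 over all 32851 promoters of the table. As many CpGs as in Crebbp were found in 1.02% of all promoters, and as many as in Ep300 in 11.7%. The Sirt1 promoter held 47, that of Sirt3 shown here 23, and the upstream one of Sirt6 20. Kat2b held 11 CpGs at its upstream and 6 at its downstream start site, the fewest of the 11 start sites inside a region, counts reached by 41.4% and 56.4% of all promoters. A GC box (GGGCGG, either strand, counting copies that do not overlap) was found in 6 copies at Sirt1, 4 at the downstream start site of Sirt3, 2 at Ncor1, and 1 each at Ep300, Crebbp, Hdac2 and the downstream start site of Sirt6, and was present in 35.7% of all promoters. Neither Kat2b promoter held it, nor did the upstream ones of Sirt3 and Sirt6 or that of the Ncor1 start site outside any region. The upstream Kat2b promoter held the letters TGAGTCA, found on either strand in 5.2% of all promoters.

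Library depth ran from 6295930 to 15544145 tags, and 24.53% (old replicate 5) to 48.23% (young replicate 2) of the tags lay in called regions. The deepest library, young replicate 5, had an estimated fragment length of 620 bp, against 414 to 444 bp in the others. The part of fragment length in called length and density was not tested. The authors scaled each region's tags to 10000000 per library, and these scaled tags are the unit of every level below. The share of tags in called regions was 34.63 to 48.23% in young and 24.53 to 35.84% in old libraries. Scaled tags summed over the called regions of a gene window were lower in old libraries at most genes. The median of the 9703 genes with a region in every library differed by −0.34 on the log2 scale, 0.79-fold, and 13.6% of genes were higher. Log2 differences are therefore given as old minus young after centring each library on the median gene. For single regions the median region was used instead, so the only region of Ep300 differed by −0.12 where its window differed by −0.08. The hepatocyte markers (8 of 8, Alb, Apoa1 and Hnf4a among them) had regions in every library, with 6989 to 10217 summed tags in young and 3956 to 6517 in old ones. Of 8 Kupffer cell markers, 7 had no region in any library, nor had 7 of 8 stellate cell, 4 of 6 bile duct and 5 of 8 lymphocyte markers. Every library had regions at 1 or 2 bile duct markers (253 to 580 summed tags in young, 222 to 520 in old libraries) and at 2 or 3 lymphocyte markers (524 to 1092 and 535 to 802), while stellate cell markers held 0 to 144 and 44.5 to 103. Of 8 endothelial markers, 2 to 4 had regions in libraries of either age, with 264 to 377 and 125 to 452 summed tags, and Cdh5, Kdr and Tek had none. The part of these cells in the results was not tested.

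None of the acetylation genes tested passed the threshold over all genes. Of the 10 genes 9 had a region in every library and could be tested, and 0 of the 9 passed (limma, Benjamini-Hochberg adjusted p = 0.254 to 0.9749), where 0.216% of all 9703 genes passed (21 genes; 0.124% higher and 0.0928% lower in old libraries). At an unadjusted p under 0.05 there was 1, Sirt6, against 13.7% of all genes. After centring, 4 of the 9 were higher and 5 lower in old libraries, with a median log2 difference of −0.06 against 0.00 for all genes. Without centring 7 of the 9 were lower and the median was −0.40, and Hdac1 and Sirt3 changed sign (−0.31 and −0.24).

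**Figure D1:**
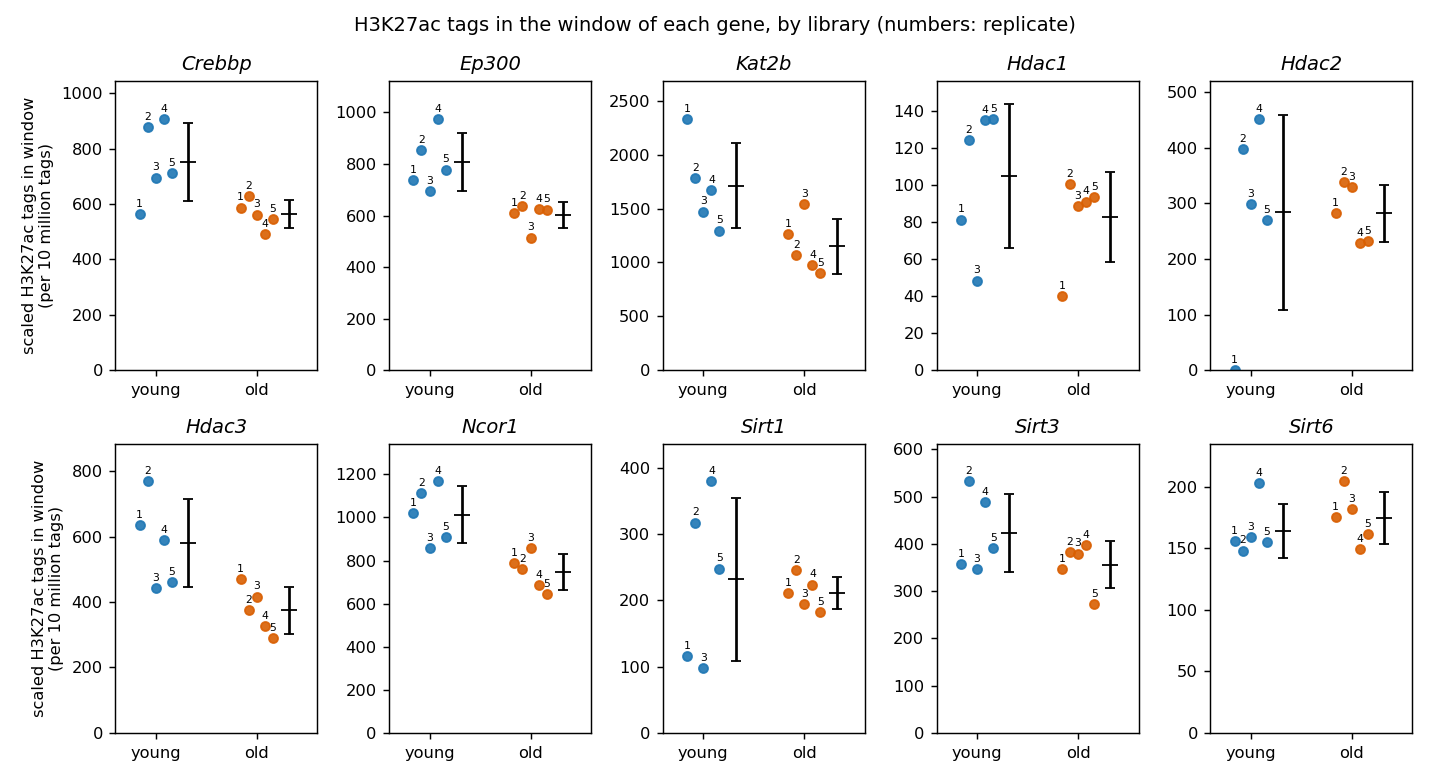
Summed scaled H3K27ac tags in the window of each gene, in each young (blue) and old (orange) library, with the replicate number above the point and the mean and SD beside it (n = 5 each). The point at 0 for Hdac2 is young replicate 1, which had no region there. The ages overlap in every panel but that of Ep300, where the young libraries lie between 694 and 975 and the old ones between 514 and 635.

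Among the writers, Ep300 had a single region of 3691 bp (chromosome 15, 81584229 to 81587920) across its start site and no other within 5 kb of the gene. It held 737, 855, 694, 975 and 778 scaled tags in young replicates 1 to 5 and 610, 635, 514, 625 and 623 in the old ones. All 5 old libraries lay below all 5 young ones, which was also so at 9.23% of all genes tested. Relative to the median gene the difference was −0.08 ± 0.13 (SE; 95% interval −0.37 to 0.21; limma adjusted p = 0.822). Ep300 was also the most densely tagged of the 10 genes, at 226 ± 46.3 tags per kb of called length (SD, n = 10 libraries), and came highest in 9 of the 10 libraries.

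Crebbp, the paralogue, held 564, 878, 695, 908 and 711 tags in the young and 587, 629, 562, 492 and 546 in the old libraries. Young replicate 1 lay within the range of the old libraries and the other 4 above it. The difference was −0.06 ± 0.10 (SE; 95% interval −0.27 to 0.16; limma adjusted p = 0.822). The start-site region (chromosome 16, 4212174 to 4215248) supplied 61.3 to 75.9% of these tags. A region at 4076399 to 4079011, beyond the other end of Crebbp, supplied 24.1 to 35.1%, and it spans an annotated end of Trap1, which encodes a mitochondrial chaperone. Taken alone, the start-site region differed by −0.02 (limma adjusted p = 0.961) and the region at Trap1 by −0.22 (limma adjusted p = 0.363). A weak region inside the gene (4199157 to 4200552) was called in 4 young and 2 old libraries.

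Kat2b had most of its tags away from its upstream start site. Its window held 14 regions, 7 of them called in all 10 libraries, and 63.4 to 69.4% of its tags lay outside the region of the upstream start site (65.6 ± 2.4% in young, 66.4 ± 1.9% in old; SD, n = 5 each). The summed tags were 2333, 1784, 1470, 1671 and 1295 in young and 1263, 1068, 1538, 976 and 901 in old libraries. The ages overlapped, since old replicate 3 exceeded 2 young libraries. The difference was −0.23 ± 0.19 (SE; 95% interval −0.64 to 0.18; limma adjusted p = 0.603), and with young replicate 1 left out it was −0.05.

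The strongest Kat2b region (chromosome 17, 53565685 to 53571230) covered the upstream start site. It carried 713, 624, 531, 562 and 474 tags in young and 450, 375, 477, 325 and 296 in old libraries. Only old replicate 3 exceeded the lowest young library, young replicate 5. Its difference was −0.31 ± 0.13 (limma adjusted p = 0.24; −0.60 and adjusted p = 0.0486 without centring, where 5.78% of all regions passed). The region of the downstream start site (53576653 to 53584867) varied widely, from 99.1 tags in young replicate 5 to 563 in young replicate 1 and from 67.5 to 230 in the old libraries (−0.36, limma adjusted p = 0.677). Inside the gene body, the region at 53585614 to 53590114 held 281 ± 98.2 tags (SD, n = 5) in young against 217 ± 50.9 in old libraries (−0.04), and that at 53641444 to 53645398 had 186 ± 37.9 and 134 ± 29.8 (−0.17). A smaller one at 53625613 to 53629514 had 121 ± 32.2 and 64.8 ± 14.3 tags, with −0.57 ± 0.22 (limma adjusted p = 0.216). The last 2 of the 7, at 53648792 and 53653902, differed by −0.29 and 0.00. None of the 7 passed the threshold. All 7 had a value below 0 after centring, though that at 53653902 was only −0.0014. Those at 53585614 and 53653902 turned to 0.07 and 0.09 on tags per kb. Without young replicate 1 the region at 53576653 stood at −0.0032 and that at 53585614 at 0.17. The others then ran from −0.53 at 53625613 to −0.05 at 53653902.

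**Figure D2:**
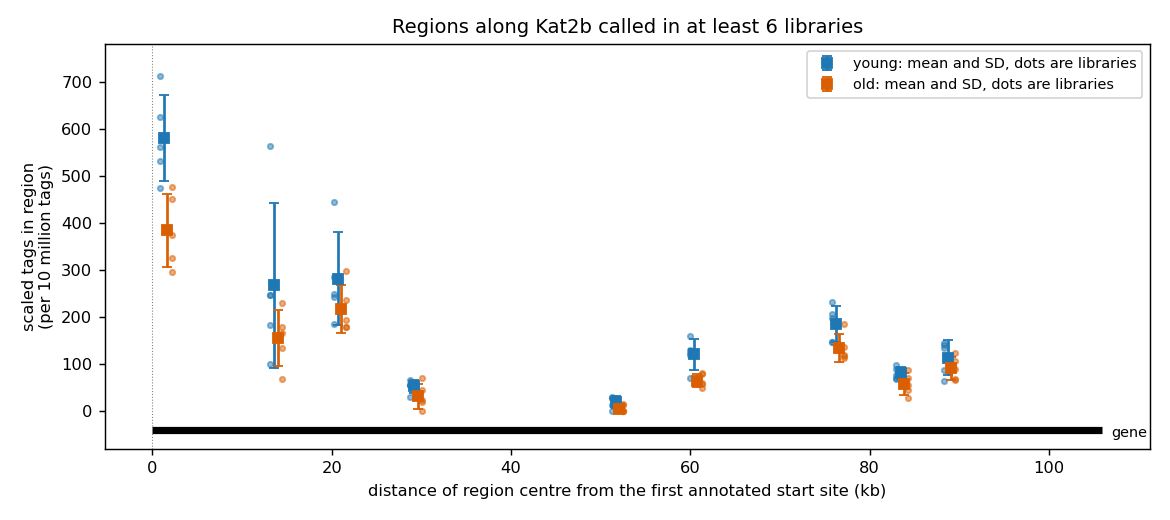
Scaled tags of the Kat2b regions called in at least 6 libraries against the distance of the region's centre from the upstream start site; squares and bars are the mean and SD of 5 young (blue) and 5 old (orange) libraries, dots single libraries, and the black bar the annotated gene. The strongest region lies at the start site, and further regions called in all libraries have centres 13.8 to 88.9 kb into the gene.

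Of the zinc-dependent erasers, Hdac1 had the lowest H3K27ac sum of the 10 genes. Its window held 81.5, 124, 48.4, 135 and 136 tags in young and 39.9, 101, 88.7, 91.2 and 93.8 in old libraries. The lowest library of each age, young replicate 3 and old replicate 1, lay well below the others of its age. The difference was 0.03 ± 0.34 (SE; 95% interval −0.71 to 0.78; limma adjusted p = 0.9749), the widest interval among the 9 genes. A region at 1 annotated end of the gene (chromosome 4, 129541595 to 129543632) was called in all 10 libraries and supplied 77.5 to 100% of the tags.

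Hdac2 had a single region at its start site (chromosome 10, 36973493 to 36975860), called in 9 of 10 libraries. The young libraries held 0, 398, 299, 452 and 271 tags and the old ones 282, 338, 329, 229 and 232. Young replicate 1 had no call there, and the 4 other young libraries overlapped the old ones, so Hdac2 was outside the test. Without young replicate 1, an alternative added once the data had been seen, the difference was 0.09 (limma adjusted p = 0.743). A region needed 4-fold more tags than its input, and at Hdac2 young replicate 3 stood at 4.47-fold against 8.64-fold to 16.1-fold in the other 8 libraries with a call. The input level in that library was 46.0 tags per kb, scaled like the H3K27ac tags, and 7.83 to 20.3 in the other 8.

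The window of Hdac3 took most of its tags from a neighbour. It held 635, 768, 441, 590 and 461 tags in young and 469, 375, 416, 326 and 289 in old libraries, with old replicate 1 above 2 of the young ones. The difference was −0.27 ± 0.13 (SE; 95% interval −0.57 to 0.02; limma adjusted p = 0.389). The larger region (chromosome 18, 37926795 to 37936010) lies beyond an end of Hdac3 and spans an end of Diaph1, which encodes a formin that nucleates actin filaments. It differed by −0.48 ± 0.16 (limma adjusted p = 0.158), with 515 ± 107 tags (SD, n = 5) in young against 307 ± 94.9 in old libraries. This region, merged over libraries, reaches beyond the 5 kb flank, so its tags include some that the window sum leaves out. The region at the Hdac3 end that faces Rell2 (37952869 to 37955720) held 150 ± 44.3 and 124 ± 25.1 tags and differed by 0.07 (limma adjusted p = 0.889; −0.23 without centring). On the gene span alone, without the flanks, Hdac3 stood at 0.13 (limma adjusted p = 0.789).

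Ncor1, the corepressor that carries HDAC3, had the strongest single region of the set (chromosome 11, 62455284 to 62460012), which also spans an end of Pigl, an enzyme gene of GPI anchor synthesis. The Ncor1 window held 1021, 1114, 857, 1167 and 908 tags in young and 788, 759, 859, 688 and 644 in old libraries. The ages met at a single point, where old replicate 3 exceeded young replicate 3. The difference was −0.09 ± 0.10 (SE; 95% interval −0.30 to 0.11; limma adjusted p = 0.682), and −0.44 without centring. The start-site region supplied 86.0 to 95.9% of the tags (−0.16, limma adjusted p = 0.344). A region in the gene body at 62351090 to 62353628 was called in all 10 libraries with 32.3 to 103 tags (0.35, limma adjusted p = 0.576). A second annotated Ncor1 start site at 62438515, with 2 CpGs in its 300 bases, lay in no region of any library.

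Of the sirtuins, Sirt1 had 1 region at its start site (chromosome 10, 63336971 to 63340260). It held 116, 317, 97.4, 379 and 248 tags in young and 211, 245, 194, 224 and 183 in old libraries. Young replicates 1 and 3 lay below all old libraries, and replicates 2, 4 and 5 above all of them. The difference was 0.40 ± 0.28 (SE; 95% interval −0.21 to 1.00; limma adjusted p = 0.538), and it was −0.07 (limma adjusted p = 0.844) with young replicates 1 and 3 left out.

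Sirt3 shared its region (chromosome 7, 140876265 to 140883159) with an end of Psmd13, a gene of the proteasome lid. Its window held 358, 532, 347, 488 and 392 tags in young and 346, 383, 379, 398 and 273 in old libraries, and the ages overlapped. The difference was 0.10 ± 0.10 (SE; 95% interval −0.12 to 0.32; limma adjusted p = 0.675), and −0.24 without centring.

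Sirt6 gave the largest difference of the 9 genes relative to the median gene. Its region (chromosome 10, 81626313 to 81628666) also spans an end of Ankrd24. The young libraries held 156, 148, 159, 203 and 155 scaled tags and the old ones 175, 204, 182, 149 and 161, so that the ages overlapped. After centring, all 5 old libraries (7.51 to 7.84 on the log2 scale) lay above all 5 young ones (6.76 to 7.37), as old libraries did at 1.99% of all genes (3.9% in either direction). With scaled tags alone, that held at 0.0824% of all genes. The difference was 0.43 ± 0.15 (SE; 95% interval 0.10 to 0.76) and did not pass over all genes (limma adjusted p = 0.254). It was 0.09 without centring, 0.05 with flanks of 20 kb and 0.22 with the share of tags in regions as a covariate. Called length differed by a like amount, 0.42 ± 0.17 (limma adjusted p = 0.458), and on tags per kb of called length the difference was 0.01 (limma adjusted p = 0.988).

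**Figure D3:**
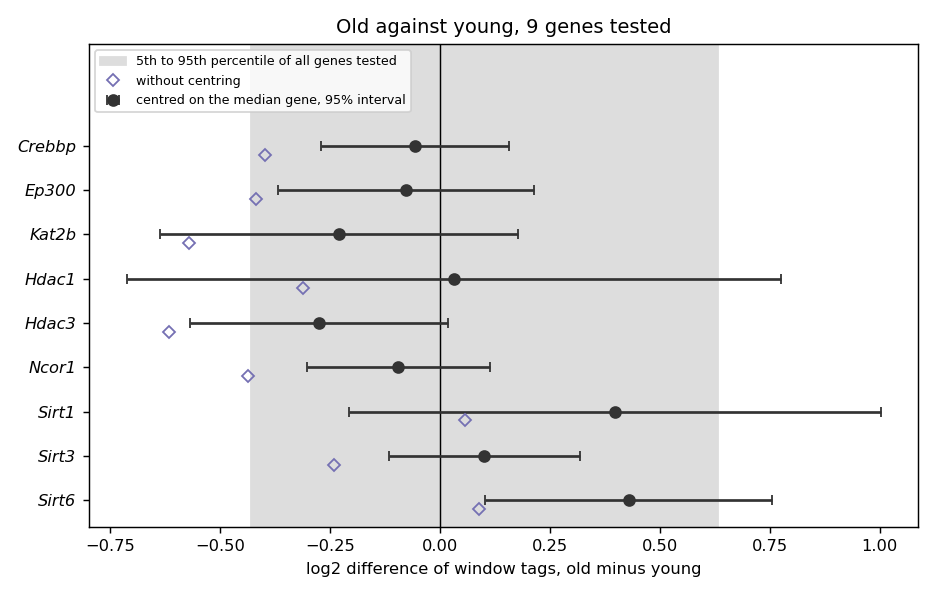
Log2 difference of window tags, old minus young, for the 9 genes with a region in every library; circles and bars are limma's estimate after centring with its 95% interval, diamonds the estimate without centring, and the grey band the 5th to 95th percentile of all 9703 genes (−0.43 to 0.63). The circles of all 9 genes lie inside the band, and the interval of Sirt6 alone does not reach 0.

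Summed tags rise with the length that was called, so length and density were examined beside them. Called length was greater in old libraries for 3 of the 9 genes and smaller for 6 after centring, and 0 passed (limma adjusted p = 0.458 to 0.952; 0.0103% of all genes passed, and 9.78% had an unadjusted p under 0.05). On tags per kb, 5 of the 9 were higher and 4 lower, and 0 passed (limma adjusted p = 0.617 to 0.988; 0.0928% of all genes passed). The windows of all 10 genes held 37 regions, of which 18 were called in all 10 libraries, 9 in 2 to 9 and 10 in a single library. Among the 18, 12 were lower and 6 higher in old libraries, and 7 of the 12 were those of Kat2b alone. Of the 18, 0 passed (limma adjusted p = 0.158 to 0.998), where 1.07% of all 12550 such regions passed. At an unadjusted p under 0.05 there were 4, against 17.2% of all regions. They were the Diaph1 region near Hdac3, the Sirt6 region and the Kat2b regions at 53565685 and 53625613. No region was called in 4 or more libraries of 1 age and at most 1 of the other, as was so of 1.74% of all 46767 merged regions.

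By tags per kb of called length over all libraries, the genes ranked Ep300 (226), Hdac2 (171 ± 39.6, SD, n = 9), Ncor1 (145 ± 34.1), Crebbp (127 ± 19.8), Sirt6 (103 ± 21.4), Sirt1 (102 ± 21.4), Sirt3 (79.3 ± 14.5), Hdac3 (76.6 ± 17.5), Hdac1 (67.1 ± 14.8) and Kat2b (54.5 ± 9.3; SD, n = 10 for these). Neighbours in this order differed by less than the larger of their SDs, except Ep300 from Hdac2, Crebbp from Sirt6 and Sirt1 from Sirt3, which differed by 1.19, 1.12 and 1.07 times that SD. Kat2b had the largest tag sum and the lowest density, the latter in 7 of 10 libraries, with a called length of 28934 ± 2263 bp (SD, n = 5) in young against 22803 ± 2887 bp in old libraries (log2 difference −0.19, limma adjusted p = 0.668).

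Young replicates 1 and 3 had the lowest median fold over input at start sites. Over the start-site regions of the 8 genes with a promoter entry (7 in young replicate 1, which lacked that of Hdac2), the median fold over input was 8.95 and 6.39 in these libraries and 10.5 to 19.7 in the other 8. The median input at these regions was 19.3 and 25.1 tags per kb in them and 5.82 to 14.95 in the others. Kat2b was represented among them by the region of its upstream start site. At the 6 other Kat2b regions called in all libraries, including that of the downstream start site, the order was different. Their median fold was 14.6 and 31.4 in young replicates 1 and 3 and 6.64 to 15.2 elsewhere. At the downstream start site alone the fold was 17.7 and 34.7 in these 2 libraries and 6.78 to 11.4 in the others. At the Crebbp start site the fold was 6.01 and 5.97 in these 2 libraries and 9.13 to 35.6 in the rest, at Ncor1 10.99 and 9.06 against 12.45 to 36.9, and at Ep300 10.97 and 9.21 against 12.7 to 40.7. These libraries were not the lowest at every gene. At Sirt1 the fold was 6.22 and 4.44 in them and 4.30 to 17.8 in the rest, at Sirt6 5.02 and 5.60 against 4.65 to 11.3, at Kat2b 9.68 and 6.81 against 9.04 to 21.6, and at Sirt3 8.95 and 12.75 against 11.90 to 17.25. At Sirt1, where tags were low in both, the input was 14.5 and 17.05 tags per kb and 6.08 to 23.4 in the other 8 libraries. The part of the input in the missing Hdac2 call was not tested. Without both libraries, also an alternative added after seeing the data, 0 of the 10 genes passed, and the differences were 0.01 at Kat2b, −0.24 at Hdac1, 0.10 at Hdac2 and 0.54 at Sirt6 (limma adjusted p = 0.139 for Sirt6).

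**Figure D4:**
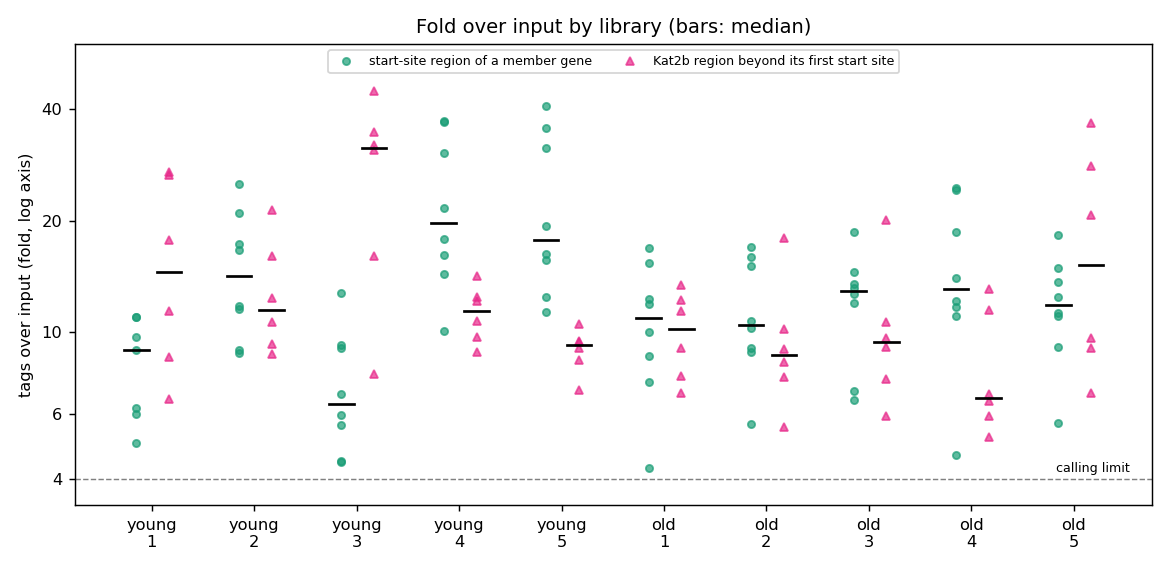
Tags over input in each library (log axis) at the start-site regions of Crebbp, Ep300, Kat2b, Hdac2, Ncor1, Sirt1, Sirt3 and Sirt6 (circles) and at 6 Kat2b regions further into the gene (triangles), with the median as a bar and the calling limit of 4-fold dashed. For Kat2b the circle is the region of the upstream start site, and that of the downstream start site is among the triangles. In young replicates 1 and 3 the circles sit low and the triangles high, with medians of 8.95 and 6.39 against 14.6 and 31.4.

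The wider acetylation machinery was examined through 8 lists with 143 genes, of which 121 had a region in every library. None (0) of the 121 passed (limma; lowest adjusted p = 0.178), 15 had an unadjusted p under 0.05 (0.216% of all genes passed and 13.7% had such a p), and 58 were higher and 63 lower in old libraries, with a median of −0.01. The other acetyltransferases had 7 of 10 genes higher and a median of 0.09, and the subunits of acetyltransferase complexes 11 of 29 and −0.09. The other zinc-dependent deacetylases had 3 of 5 higher (0.03), the other sirtuins 2 of 4 (−0.02) and the subunits of deacetylase complexes 12 of 28 (−0.03). Readers of acetylated lysine had 12 of 22 higher (0.06), genes of acetyl-CoA supply 5 of 9 (0.02) and genes of NAD supply and use 6 of 14 (−0.06).

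The 2 genes with the largest differences in each list did not pass either (limma adjusted p = 0.236 to 0.892). Kat5, the catalytic subunit of the NuA4 (TIP60) complex, had 351 ± 107 tags (SD, n = 5) in young against 374 ± 60.1 in old libraries (0.48), and the coactivator gene Ncoa3 had 343 ± 190 and 365 ± 65.9 (0.65). Of complex subunits, Supt3 stood at 0.85, Kansl2 at −0.36, Ing1, a subunit of the Sin3 complex, at 1.21 and Chd4, the remodelling ATPase of NuRD, at 0.34. Ing1 had 60.6 and 38.1 tags in young replicates 1 and 3 but 450 to 563 in the other young libraries and 272 to 450 in the old ones. Chd4 had 231 and 215 tags in young replicates 1 and 3, 468 to 577 in the other young ones and 334 to 459 in the old ones. The deacetylase genes Hdac5 and Hdac8 stood at 0.20 and −0.10 (0.27 without young replicates 1 and 3), and Sirt7 and Sirt5 at 0.16 and −0.08. The bromodomain genes Trim24 and Atad2 stood at 0.67 and 0.99. Acss2, which makes acetyl-CoA from acetate, stood at 0.41, and Pdhx, a part of the pyruvate dehydrogenase complex, at −0.63. The NAD genes Haao and Nmnat1 stood at 0.52 and 0.48. Leaving out 1 library moved several of these values. Without young replicate 3 the difference was 0.11 at Trim24, 0.30 at Ncoa3, 0.66 at Ing1, 0.62 at Atad2, 0.19 at Chd4 and 0.23 at Nmnat1. Without young replicate 1 it was 0.39 at Supt3, 0.33 at Haao and 0.04 at Sirt7, and without old replicate 5 it was −0.32 at Pdhx. Without both young replicates 1 and 3 the 12 genes that were higher in old libraries ran from 0.0018 at Chd4 to 0.46 at Atad2, with 0.0055 at Trim24, 0.01 at Ing1, 0.17 at Ncoa3, 0.30 at Kat5, 0.34 at Haao and 0.41 at Supt3. Kansl2 and Pdhx then stood at −0.26 and −0.68.

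**Figure D5:**
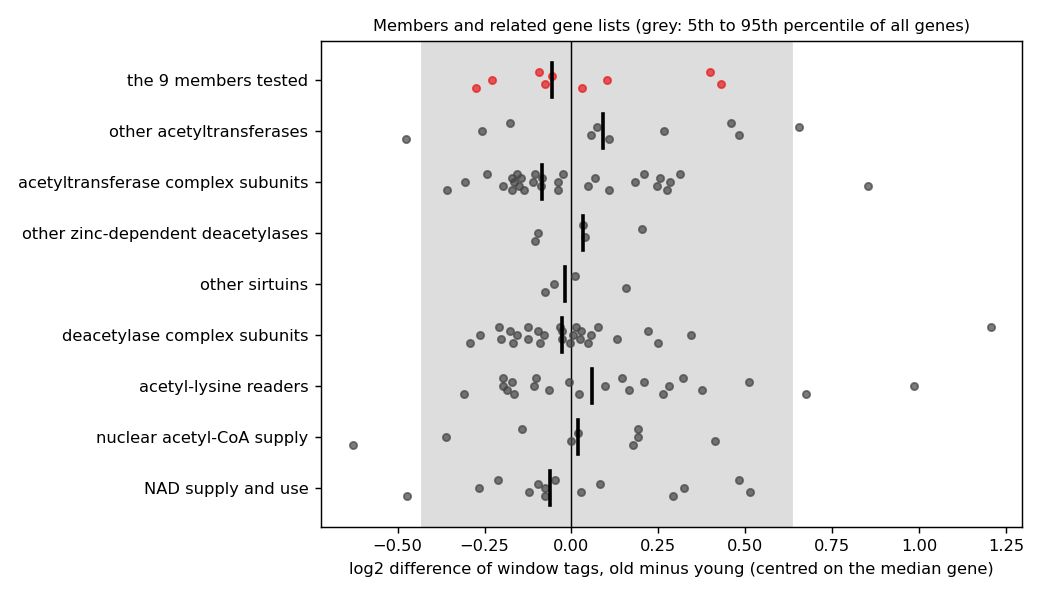
Log2 difference of window tags, old minus young and centred on the median gene, for the 9 genes tested (red) and for the genes of 8 related lists (dark grey), 1 point per gene, with the list's median as a bar and the 5th to 95th percentile of all genes as a grey band. List medians lie between −0.09 and 0.09, and the point furthest right is Ing1 at 1.21.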

How the data were processed

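H3K27ac was measured by chromatin immunoprecipitation and sequencing in hepatocytes. Regions had been called by the authors with HOMER in its histone mode, per the file headers, each library against its own input and without pooling, by stitching 500 bp peaks at a minimum distance of 1000 bp. A region needed 4-fold more tags than input and than the surrounding 10000 bp, at a Poisson p of 1e-04. Coordinates are in mm10 (submitters' processing notes); no aligner or HOMER version is named in the sources used here. The signal values used, tags and input, were scaled by the authors, the tags to 10000000 per library and the input to the depth of the matched library. Input was rescaled here like the tags. The authors' unscaled tags, deposited in steps of 0.5, are estimated counts per region before scaling, per the file headers, and were rounded and used in edgeR 4.0.16 and DESeq2 1.42.0 as alternatives only. The authors' score ranked regions within a list, and their region length is an other unit in bp.

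A region with at least 1 bp in a window counted whole, so a sum moves with called length, and windows of neighbouring genes share regions. A window without a call may still hold signal. Log2 of summed tags plus 1 was tested over all protein-coding genes with a region in every library, and log2 of length likewise, with limma 3.58.1 (mean-dependent prior) and Benjamini-Hochberg adjustment at 0.05. Differences on this scale understate changes of weak windows. Regions merged over lists and called in all libraries were tested in the same way, with each library centred on the median region. Tags were also simulated for 9703 genes and 5 libraries per age. On these, the test of window tags called 96.8% of genes changed 2-fold and 34.6% of those changed 1.5-fold. Every simulated gene had the same relative spread beyond counting noise, without library effects, calling limit or variation in called length. These shares therefore do not carry over to windows that vary widely, such as that of Sirt1 (232 ± 123 tags in young libraries, SD). Depth is given as total tags. R 4.3.3, Python 3.11.15 and matplotlib 3.10.9 were used. The genes and lists were chosen with earlier results of these data known. Genes and regions were named by rule: all 10 genes, neighbours within their windows, the 2 largest differences per list (1 gene of the lists is not reported here), the strongest region of each gene and those past the threshold, and other regions, chosen after their values were seen. Alternatives covered scaling, pseudocount, filters, thresholds, windows, overlap, tools, IP efficiency (the share of tags in regions) as a covariate, the replicate number as a block and each library left out.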

Additional observations from a re-analysis of the deposited data

Results flagged for a closer look

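In 76 groups of 5 libraries of 1 age (tags and called length of each gene, and tags of each region called in all libraries), 7 had a highest or lowest library far from the other 4. Chance gives about 1 in 20 such groups, and the single regions of Ep300 and Sirt6 repeat the values of their windows. Old replicate 3 was low at Ep300, with 514 tags in the window and in its region. Old replicate 1 was low at Hdac1, with 39.9 tags and a called length of 629 bp. Young replicate 4 was high at Sirt6, with 203 tags in the window and in its region. Old replicate 5 had the shortest called length at Hdac3, 4456 bp.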

How the results depend on the processing

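None (0) of the 10 genes passed under any of the 27 alternatives for window tags or the 14 for called length. With the stricter score threshold only 2723 genes had a region in every library, 3 of the 10 among them, and the others could not be tested there. The lowest adjusted p (limma) was 0.0691, at Hdac3 without centring. Hdac2 has a value in 3 of these alternatives only, 0.09 and 0.10 without young replicates 1 or 1 and 3, and 1.71 (limma adjusted p = 0.651) where genes with a region in at least 2 libraries entered. Of the 15 alternatives for regions, 1 called a region in these windows (no centring, 1 region at Kat2b). Genes called numbered 87 without centring, 56 with cyclic loess, 9 on tags per kb, 11 with a region in at least 2 libraries, 0 with the stricter score threshold, 1 with lists of equal length, 42 with 20 kb flanks, 32 with tags in proportion to overlap, 47 with edgeR, 298 with DESeq2 and 0 with IP efficiency as a covariate, against 21. The alternatives added after seeing the data gave 111 (without young replicates 1 and 3) and 61 (without young replicate 1). Regions called numbered 725 without centring, 40 on tags per kb and 0 with IP efficiency, against 134. Length calls numbered 0 without centring, with IP efficiency or with the stricter threshold, against 1. Same-numbered libraries of both ages did not deviate together in every pair (correlations −0.06 to 0.18). Such correlations cannot decide whether the numbers pair the libraries, so a fit with the replicate block is given as well. With the replicate block 4 genes, 6 lengths and 74 regions were called, and 0 of the members.

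Leaving out 1 library gave 2 (old replicate 4) to 68 (young replicate 1) genes, 0 to 7 lengths and 30 to 255 regions. For window tags the difference then ran from −0.17 to 0.013 at Ep300, −0.18 to 0.30 at Hdac1 and −0.27 to 0.037 at Hdac8. For length it ran from −0.33 to 0.065 at Hdac1, −0.12 to 0.084 at Hdac3, −0.16 to 0.041 at Ncor1 and −0.14 to 0.022 at Sirt3. For single regions it ran from −0.12 to 0.040 at the Crebbp start site, −0.24 to 0.30 at Hdac1, −0.10 to 0.15 at the Hdac3 end, −0.14 to 0.17 and −0.16 to 0.13 at Kat2b 53585614 and 53653902, and −0.0057 to 0.11 at Sirt3.

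These signs turned, none at a value past the threshold, and the cause was not tested. Without centring window tags were −0.31 at Hdac1, −0.24 at Sirt3, −0.14 at Hdac5 and −0.18 at Sirt7, length −0.077 at Ep300, and regions −0.26 at Hdac1, −0.23 at the Hdac3 end and −0.23 at Sirt3. Cyclic loess gave −0.038 at Hdac1. Tags per kb gave 0.027 at Crebbp, −0.10 at Sirt7, −0.050 at Chd4 and −0.00019 at Ing1, and in regions 0.066 and 0.086 at Kat2b and −0.0038 at Sirt6. The stricter threshold gave 1.91 at Ncor1, and for length 0.35 at Hdac1 and 0.40 at Ncor1. Lists of equal length gave 0.083 at Crebbp and 0.52 at Ncor1. The gene span alone gave 0.0093 at Crebbp, 0.13 at Hdac3 and 0.074 at Sirt5, and 20 kb flanks 0.029 at Sirt5. Counting only regions with at least 50% of their length in the window gave 0.14 at Hdac3 and −0.30 at Sirt7. The IP efficiency covariate gave −0.14 at Hdac1, and for length −0.12 at Ep300 and 0.084 at Hdac3. edgeR gave −0.0037 at the Hdac1 region. Without young replicates 1 and 3 the values were 0.014 at Kat2b, −0.24 at Hdac1, −0.070 at Sirt1, 0.27 at Hdac8 and 0.027 at Sirt5, and without young replicate 1 0.040 at Hdac8. With 5 libraries per age, intervals of the members relative to the median gene allow folds from 0.61 (Hdac1) to 2.00 (Sirt1). The narrowest interval, that of Ncor1, runs from 0.81 to 1.08.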

Other observations

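The missing call at Hdac2 in young replicate 1 was not a single case. Of 2961 merged regions called in exactly 9 libraries, 680 lacked only young replicate 1 and 626 only young replicate 3, while young replicates 2 and 4 were the missing library for 41 and 37. An annotated start site lay in 358 and 301 of the regions missing in young replicates 1 and 3, and in 970 of all 2961. Old replicate 5, the shallowest library, was the missing one for 804, of which 196 held a start site. Over all called regions of a library, the median input per kb at regions with a start site was 3.1 and 4.54 times that at regions without one in young replicates 1 and 3, and 1.52 to 2.22 times in the other 8 libraries.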
